A study of Homo sapiens with 6 samples.

Results

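RAB GTPases were examined as the genes whose symbol is RAB followed by a number and at most a letter or a letter with a digit, which held for 42 of the 11187 genes in the deposited table. The choice among listed genes used symbols only and no measured value. Each listed gene reached at least 0.527 FPKM, the measure of level explained below, in some library. RAB genes under that level in every library may therefore be missing. Genes of RAB-binding proteins, the hyphenated read-through genes and RAB40AL were not members. The RNA was from the AGS line, epithelial cells derived from a human gastric adenocarcinoma and kept in DMEM with fetal bovine serum. Cells were transiently transfected either with a negative control (NC) or with miR-3648 mimics, synthetic RNAs that act as the microRNA, and each group held 3 libraries. The comparison asks which genes differ with the mimics. All libraries are of a single cell line, and the labels name neither the NC sequence nor separate cultures, so the p-values reflect variation among these 6 libraries that may be technical.

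RAB proteins are small GTPases that mark the membranes of the secretory and endocytic routes. Exchange factors (GEFs) load a RAB with GTP on its membrane, and the loaded RAB binds effectors such as tethers, motor adaptors and coat proteins. GTPase-activating proteins (GAPs) switch it off, and GDI proteins extract the prenylated RAB and keep it soluble. In epithelial cells RAB8, RAB10, RAB11 and RAB25 serve delivery to the cell surface, while RAB5 and RAB7 act in succession along the route to the lysosome.

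The mature miR-3648 sequence and the matches to its seed in RAB transcripts are shown because the mimics carry this seed. The microRNA lies on chromosome 21 (chr21:8987026-8987046, plus strand, GRCh38.p14, RefSeq), and the capitals mark the seed, bases 2 to 8.
hsa-miR-3648: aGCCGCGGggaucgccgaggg
The searched words on the sense strand were CCGCGGC (called 7mer-m8) and CGCGGCA (called 7mer-A1), which overlap in an 8mer, and their shared core CGCGGC (the 6mer). In the longest coding transcript of each gene in GENCODE v29, 2 of the 40 tested RAB genes (5%) held a 7mer site in the 3′ UTR, against 2.04% of 10213 tested genes with such a transcript. These were RAB40C, on chromosome 16, with an 8mer, a 7mer-A1 and 2 further 6mer cores in a 3′ UTR of 1649 nucleotides, and RAB8A, on chromosome 19, with a 7mer-m8 in one of 1930 nucleotides. The capitals in the windows mark the match.
RAB40C 8mer: cgtggtggactCCGCGGCAcatgcttccca
RAB40C 7mer-A1: cacggaccaagCGCGGCAggcgggaggag
RAB8A 7mer-m8: ccccgcccacgCCGCGGCcaccgggccca
In coding sequence, 3 of the 40 genes (7.5%) held a 7mer, against 13.6% of tested genes, and they were RAB40C, RAB4A and RAB12, on chromosomes 16, 1 and 18.
RAB40C coding 7mer-A1: ctgcaggacggCGCGGCAgagtccccgta
RAB4A coding 7mer-m8: agctgaggtcaCCGCGGCgcgcacaggcc
RAB12 coding 7mer-m8: attatcggctcCCGCGGCgtgggcaagac
In the 5′ UTR, 10 of the 40 genes (25%) held a 7mer, against 15.6% of tested genes. They were RAB21, RAB22A, RAB23, RAB27B, RAB2A, RAB32, RAB43, RAB4B, RAB8B and RAB9A, and their windows are not shown. A match is a description of the letters and does not show a target. The values of RAB40C, RAB8A, RAB4A and RAB12 in each library follow in their groups below.

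Levels are given as FPKM, fragment numbers corrected for gene model length and library size, so they can be compared between genes per length. The 42 RAB genes summed to 734, 754 and 738 FPKM in NC replicates 1 to 3 and to 727, 718 and 704 FPKM in mimics replicates 1 to 3. RAB7A, RAB1B, RAB10 and RAB25 were the 4 most abundant members in every library and held 37.2% to 43.8% of that sum. At the lower end, RAB26 and RAB40B did not reach the mean of 1 FPKM required for the test, which left 40 tested members. The highest library was at least 1.5 times the lowest within NC for 4 of these (RAB27B, RAB33B, RAB40C and RAB43), against 20.2% of tested genes, and within mimics for 5 (RAB30, RAB40C, RAB43, RAB4B and RAB8B), against 9.21%.

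**Figure D1:**
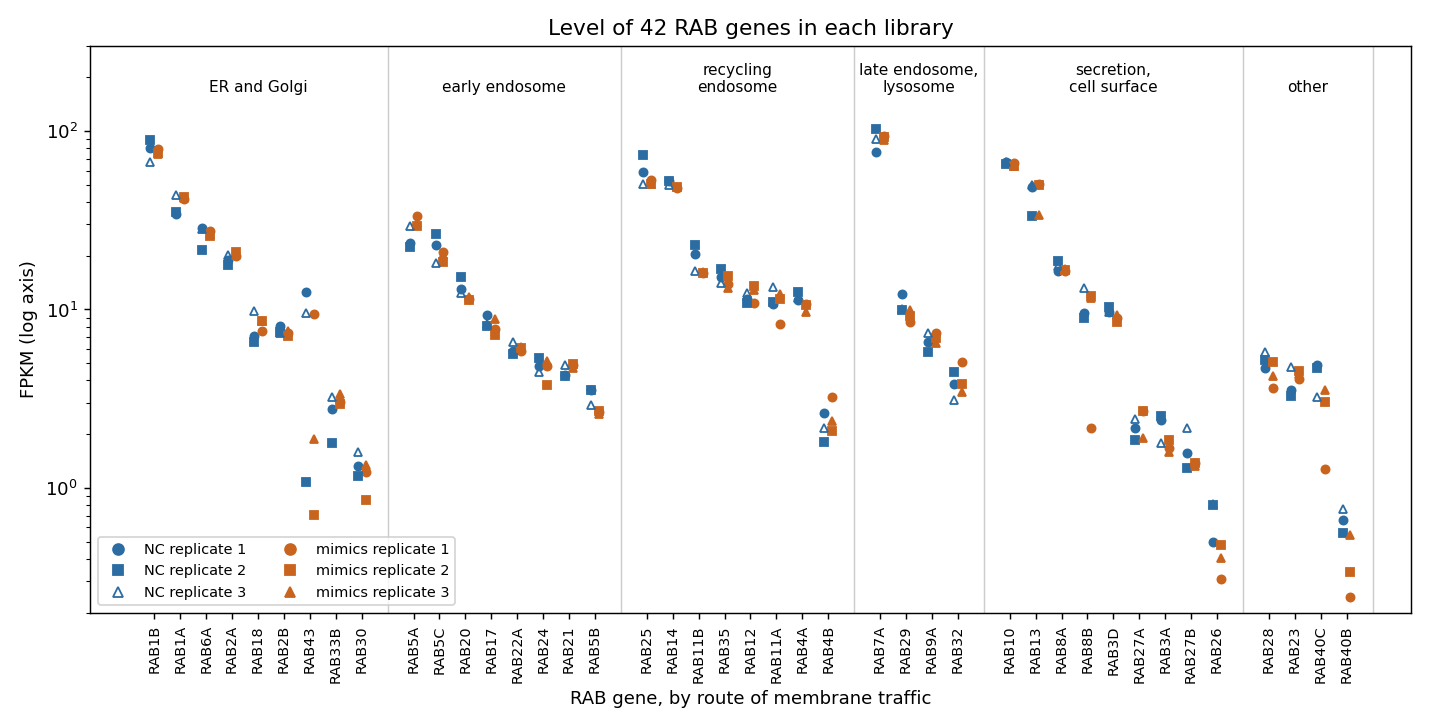
FPKM of each RAB gene (log axis) in each library, with NC in blue and mimics in orange, and with the open triangle for NC replicate 3. RAB7A, between 76.3 and 102 FPKM, is highest in every library except NC replicate 1, where RAB1B is, and RAB43, RAB8B and RAB40C show the widest spread within a group among tested genes.

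No RAB gene passed the test of mimics against NC (0 of 40, 0 higher and 0 lower). Over all tested genes 0.408% passed, 42 of 10286 (0.233% higher and 0.175% lower), at a limma adjusted p under 0.05 on log2(FPKM + 1) values, so a count of 0 among 40 lies near the background. At an unadjusted p under 0.05, 4 members passed, 1 higher and 3 lower, against 14.6% of all tested genes (5.77% higher and 8.87% lower). The lowest adjusted p of a member was 0.29. Differences, given here as mimics minus NC on the log2(FPKM + 1) scale, ran from -0.845 to 0.301 with a median of -0.0766, and the median over all tested genes was -0.00456. They were within 0.3 of 0 for 36 members, 24 were negative and 16 positive, and over all tested genes 51% were negative. The median standard error of these differences was 0.113 for the members and 0.105 for all tested genes. A difference that did not pass is not shown to be absent.

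The 3 mimics values lay below all 3 NC values for 7 of the 40 members (RAB5B, RAB11B, RAB14, RAB20, RAB29, RAB3D and RAB4A) and above them for 0. Over all tested genes 13.5% lay wholly below and 8.68% wholly above, 22.2% in all, against 17.5% of the RAB genes.

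**Figure D2:**
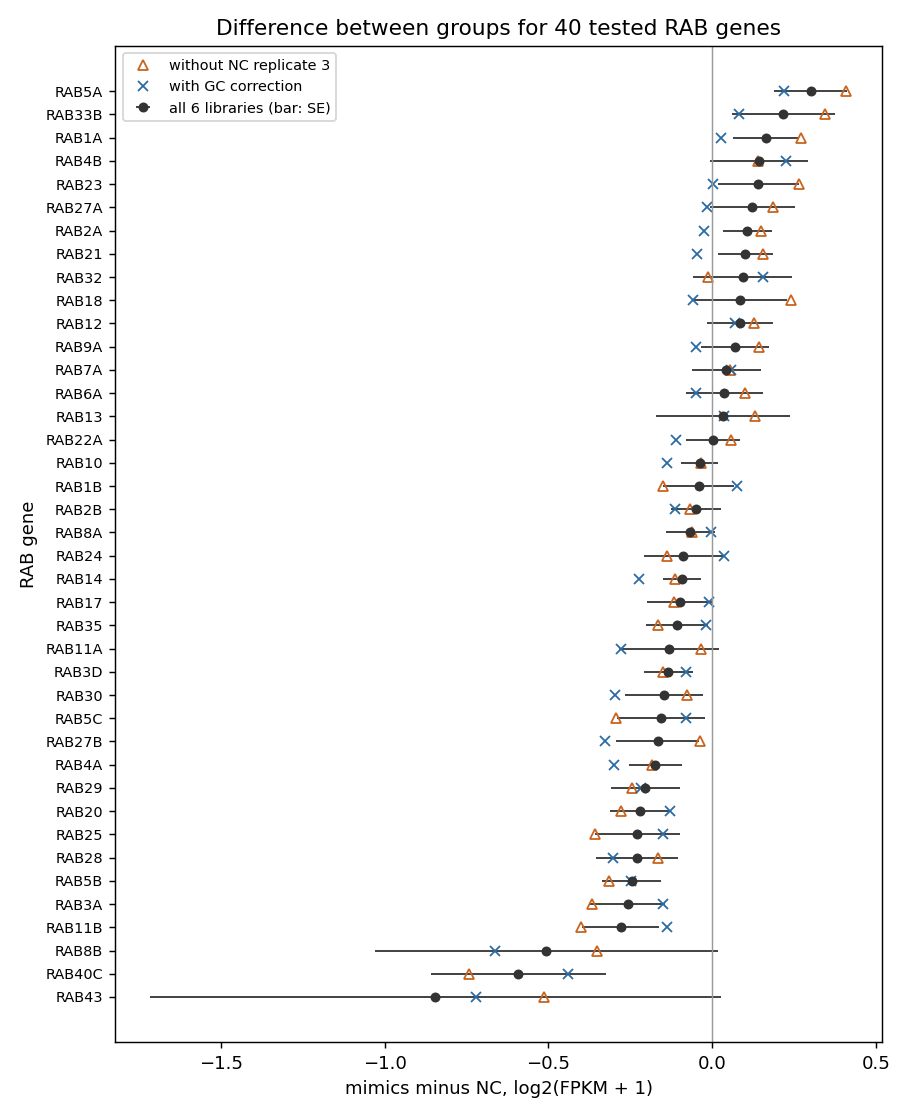
Difference of each tested RAB gene between mimics and NC on the log2(FPKM + 1) scale, with its SE as a bar (filled circle), and the difference without NC replicate 3 (triangle) and with GC correction (cross). RAB5A has the highest value, 0.30, and the widest bars belong to RAB43 and RAB8B.

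The RAB5 genes of the early endosome held 2 of the members with the smallest p, in opposite directions. RAB5A (chr3:19988571-20026667, plus strand, GRCh37), which drives fusion of early endosomes through its effector EEA1, was at 23.7, 22.5 and 29.2 FPKM in NC and 33.4, 29.2 and 30.6 FPKM in mimics libraries. NC replicate 3 was as high as the lowest mimics library, while the other NC libraries were lower than all 3. Its difference was 0.30 (SE 0.11, limma adjusted p = 0.29). RAB5B (chr12:56367697-56390467, plus strand), a paralog with the same core function, was at 3.52, 3.54 and 2.92 FPKM in NC and 2.67, 2.68 and 2.58 FPKM in mimics libraries. The groups did not overlap, and NC replicate 3 was again the nearest to the mimics (difference -0.245, SE 0.09, adjusted p = 0.29). RAB5C, the third paralog, was at 22.8, 26.4 and 18.2 FPKM in NC and 21.0, 18.5 and 20.2 FPKM in mimics libraries. Its groups overlapped through NC replicate 3, the lowest of the 6 libraries (difference -0.16, SE 0.13, limma adjusted p = 0.60). That difference was -0.04 without NC replicate 2 and -0.29 without NC replicate 3.

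The share of RAB5A in the summed FPKM of the RAB5 genes was 47.3%, 43.0% and 58.0% in NC and 58.5%, 58.0% and 57.4% in mimics libraries. NC replicate 3 thus lay within the mimics range. The exact two-sided permutation test gave p = 0.3 for this share (n = 3 each), or 0.54 adjusted over 9 paralog families, where 3 against 3 libraries cannot go below 0.1. The shares of the other 8 families gave raw p-values between 0.2 and 0.9 in the same exact test. The summed RAB5 level was 51.0 ± 1.29 FPKM in NC and 53.6 ± 3.37 FPKM in mimics libraries (SD, n = 3 each). The summed level of RAB11A and RAB11B was 31.6 ± 2.01 and 26.8 ± 2.11 FPKM, and that of RAB3A and RAB3D was 12.2 ± 0.712 and 10.6 ± 0.234 FPKM (SD, n = 3 each). For both of these sums all mimics libraries lay below all NC libraries. The exact two-sided permutation p was 0.1, unadjusted, the smallest that this design can give. They had the smallest p of the 9 family sums, and the other sums gave 0.2 or more in the same test. Among single tested genes, 22.2% had groups that did not overlap, 13.5% wholly lower and 8.68% wholly higher with the mimics. No such share was computed for sums over paralogs.

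RAB20, a RAB of endosomes and phagosomes, was at 13.1, 15.2 and 12.4 FPKM in NC and 11.5, 11.2 and 11.7 FPKM in mimics libraries, without overlap (difference -0.22, SE 0.09, limma adjusted p = 0.34), and the difference was -0.14 without NC replicate 2. RAB17, an epithelial RAB, RAB21, which traffics integrins, RAB22A, which acts on early and recycling endosomes, and RAB24, linked to autophagy, had differences from -0.10 to 0.10 and overlapping groups. Of the 8 tested members of this group, 3 were positive and 5 negative, with a median of -0.09.

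**Figure D3:**
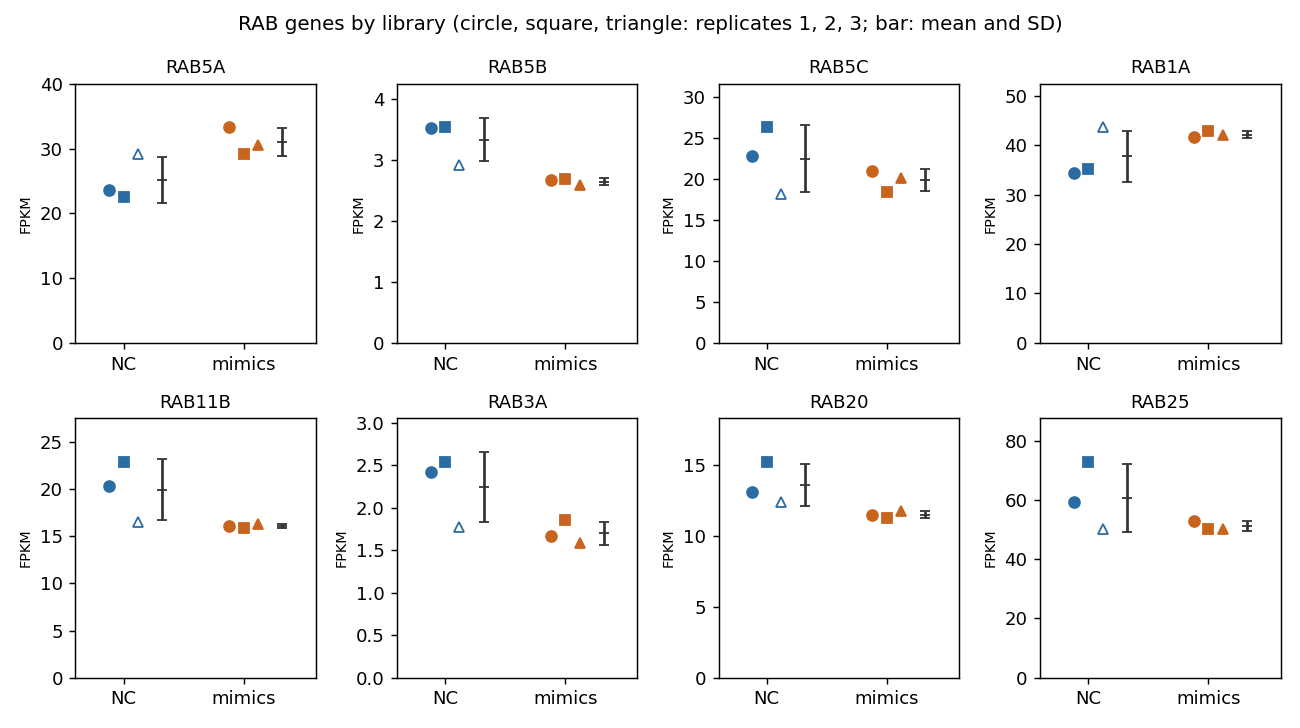
FPKM by library for 8 RAB genes, with a marker for each replicate (open triangle, NC replicate 3) and the mean with SD as a bar. In RAB5A, RAB5B, RAB5C, RAB1A, RAB11B, RAB3A and RAB25, NC replicate 3 sits at the side of the mimics libraries.

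Among RAB genes of recycling endosomes 6 of 8 were negative, with a median of -0.12. RAB11B (chr19:8454865-8469318, plus strand), a regulator of return from recycling endosomes to the cell surface, was at 20.4, 22.9 and 16.5 FPKM in NC and 16.1, 15.9 and 16.3 FPKM in mimics libraries. The groups did not overlap, but NC replicate 3 exceeded the highest mimics library only slightly (difference -0.28, SE 0.12, limma adjusted p = 0.34). Without NC replicate 2 the difference was -0.18. Its paralog RAB11A was at 10.7, 10.9 and 13.4 FPKM in NC and 8.34, 11.4 and 12.2 FPKM in mimics libraries, with overlap (difference -0.13, SE 0.15, adjusted p = 0.69).

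RAB25, the RAB11-like member of epithelia, was at 59.3, 73.0 and 50.2 FPKM in NC and 53.1, 50.2 and 50.3 FPKM in mimics libraries. NC replicate 3 equalled the mimics level, and the spread of the NC group exceeded the difference (-0.23, SE 0.13, limma adjusted p = 0.44). That difference was -0.09 without NC replicate 2 and -0.36 without NC replicate 3. RAB4A, of fast recycling, was at 11.3, 12.5 and 11.6 FPKM in NC and 10.7, 10.6 and 9.62 FPKM in mimics libraries, without overlap (difference -0.17, SE 0.08, adjusted p = 0.37). RAB14, which acts between the Golgi and endosomes, was at 52.2, 52.5 and 50.04 FPKM in NC and 48.0, 48.5 and 48.4 FPKM in mimics libraries. All mimics values were lower, by a small margin (difference -0.09, SE 0.06, limma adjusted p = 0.48). RAB14 overlaps GSN on the other strand, as RAB11A, RAB1A, RAB23, RAB27A, RAB2B and RAB3A overlap other listed genes. On the same strand, RAB3D overlaps TMEM205, which was at 16.1 to 19.7 FPKM. RAB8A likewise overlaps HSH2D, RAB24 MXD3, RAB5C AC099811.2 and RAB27A PIGBOS1, besides the read-through genes described below. The kit marks strand, but whether the quantification used it, and how fragments shared by paralogs were assigned, is not given in the sources used here, so such fragments may be split between genes.

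RAB4B was at 2.64, 1.81 and 2.18 FPKM in NC and 3.22, 2.09 and 2.36 FPKM in mimics libraries (difference 0.14, SE 0.15, limma adjusted p = 0.66). It lies inside the read-through gene RAB4B-EGLN2 on the same strand, which was listed from 0 to 3.48 FPKM in NC and from 0.0266 to 1.80 FPKM in mimics libraries, and with that gene added the difference was -0.18. RAB12, which carries a coding 7mer, was at 11.5, 10.9 and 12.3 FPKM in NC and 10.8, 13.5 and 12.8 FPKM in mimics libraries, with overlap (difference 0.09, limma adjusted p = 0.69). RAB35, of endocytic recycling, had a difference of -0.11.

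RAB genes of the endoplasmic reticulum and Golgi gave 5 positive and 4 negative differences with a median of 0.04. RAB1A (chr2:65297835-65357240, minus strand), which acts in transport from the endoplasmic reticulum to the Golgi, was at 34.3, 35.1 and 43.7 FPKM in NC and 41.6, 42.8 and 42.1 FPKM in mimics libraries. NC replicate 3 was the highest of all 6 libraries, so the groups overlapped (difference 0.16, SE 0.10, limma adjusted p = 0.47). Without NC replicate 1 the difference was 0.10. RAB1B, with the same role, was at 80.0, 89.6 and 67.1 FPKM in NC and 79.1, 74.9 and 74.6 FPKM in mimics libraries, and there NC replicate 3 was the lowest (difference -0.04, SE 0.11, adjusted p = 0.86).

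RAB2A and RAB2B, of the same transport step, had differences of 0.11 and -0.05. RAB6A, of transport at the Golgi, had one of 0.04, RAB18, of lipid droplets and the endoplasmic reticulum, 0.09, RAB33B, of the Golgi and autophagy, 0.22, and RAB30, of the Golgi, -0.15. None of these 6 genes had separate groups.

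RAB43, a Golgi RAB (chr3:128806412-128841644, minus strand), was singled out after its values were seen. It was at 12.5, 1.08 and 9.57 FPKM in NC and 9.44, 0.709 and 1.88 FPKM in mimics libraries, so high and low libraries occurred in both groups. The read-through gene ISY1-RAB43 spans it on the same strand (chr3:128806418-128879879). That gene was at 4.65 FPKM in NC replicate 2 and 4.56 FPKM in mimics replicate 2 and was listed at 0 in the other 4 libraries. The summed FPKM of both genes was 12.5, 5.73 and 9.57 in NC and 9.44, 5.27 and 1.88 in mimics libraries. The RAB43 difference of -0.84 had an SE of 0.87 (limma adjusted p = 0.66). With 1 library left out it ran from -1.69, without NC replicate 2, to -0.28, without mimics replicate 2. After adding the read-through gene it was -0.78 (adjusted p = 0.46).

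Late endosome and lysosome members were led by RAB7A, the RAB of late endosomes and of lysosome fusion. RAB7A was at 76.3, 102 and 90.2 FPKM in NC and 93.5, 92.1 and 89.5 FPKM in mimics libraries. The mimics values lay inside the NC range (difference 0.04, SE 0.11, limma adjusted p = 0.85). RAB29, a RAB that recruits the kinase LRRK2, was at 12.3, 9.98 and 10.1 FPKM in NC and 8.52, 9.15 and 9.97 FPKM in mimics libraries. Its highest mimics value lay just under its lowest NC value (difference -0.20, SE 0.10, adjusted p = 0.41), and without NC replicate 1 the difference was -0.11. RAB9A, of retrieval from late endosomes to the Golgi, and RAB32, of lysosome-related organelles and mitochondria, had differences of 0.07 and 0.09 with overlapping groups.

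Members of secretion and delivery to the surface gave 6 negative and 2 positive differences among 8 tested, with a median of -0.10. RAB10, of basolateral and GLUT4 vesicle delivery, was nearly level, at 66.7, 65.7 and 66.9 FPKM in NC and 66.3, 63.9 and 63.9 FPKM in mimics libraries (difference -0.04, SE 0.06, limma adjusted p = 0.76). RAB13, of tight junction traffic, was at 48.4, 33.2 and 49.6 FPKM in NC and 50.3, 50.1 and 33.9 FPKM in mimics libraries, so a lower library occurred in each group (difference 0.03, SE 0.20, adjusted p = 0.94).

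RAB3A (chr19:18307594-18314884, minus strand), of regulated exocytosis, was at 2.42, 2.54 and 1.77 FPKM in NC and 1.67, 1.85 and 1.59 FPKM in mimics libraries. NC replicate 3 lay inside the mimics range (difference -0.26, SE 0.11, limma adjusted p = 0.36). RAB3D, of secretory granules, was at 9.69, 10.3 and 9.69 FPKM in NC and 8.99, 8.55 and 9.28 FPKM in mimics libraries, without overlap (difference -0.13, SE 0.07, adjusted p = 0.43). RAB27A and RAB27B, which dock secretory vesicles, had differences of 0.12 and -0.17 with overlapping groups.

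RAB8A, which carries a 7mer-m8 in its 3′ UTR, was at 16.4, 18.6 and 17.6 FPKM in NC and 16.5, 16.6 and 16.8 FPKM in mimics libraries. The mimics values lay within the NC range (difference -0.07, SE 0.07, limma adjusted p = 0.68). Its paralog RAB8B (chr15:63481668-63559981, plus strand), singled out after its values were seen, was at 9.50, 8.96 and 13.1 FPKM in NC and 2.17, 11.9 and 11.6 FPKM in mimics libraries. The low value in mimics replicate 1 set the sign: the difference was -0.51 (SE 0.52, adjusted p = 0.66) with it and 0.16 without it. RAB26, a secretory granule RAB below the filter, was at 0.498, 0.7996 and 0.814 FPKM in NC and 0.309, 0.478 and 0.407 FPKM in mimics libraries. These groups did not overlap, and the exact permutation p was 0.1, the smallest that 3 against 3 can give. Every listed gene reached at least 0.527 FPKM in some library, which RAB26 did only in NC replicates 2 and 3. Its place in the table thus rested on NC values, which favours lower mimics values, so no result is drawn from this separation.

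RAB40 proteins are RABs with a SOCS box that join cullin ubiquitin ligases. RAB40C (chr16:639357-679272, plus strand), which holds the 8mer shown above, was at 4.85, 4.70 and 3.23 FPKM in NC and 1.27, 3.01 and 3.52 FPKM in mimics libraries. NC replicate 3 lay between mimics replicates 2 and 3, and mimics replicate 1 was the lowest of all. The difference was -0.59 (SE 0.27, limma adjusted p = 0.37), and it was -0.29 without mimics replicate 1. RAB40B, below the filter, was at 0.660, 0.560 and 0.766 FPKM in NC and 0.244, 0.337 and 0.542 FPKM in mimics libraries. Its groups did not overlap (exact permutation p = 0.1, n = 3 each). All NC libraries but only mimics replicate 3 reached 0.527 FPKM, the lowest maximum of any listed gene, so the listing may favour this separation too. RAB28, a RAB of cilia and photoreceptors, was at 4.68, 5.19 and 5.80 FPKM in NC and 3.64, 5.10 and 4.23 FPKM in mimics libraries, with overlap (difference -0.23, SE 0.13, limma adjusted p = 0.42). It was -0.14 without mimics replicate 1. RAB23, a regulator of Hedgehog signalling, had a difference of 0.14.

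**Figure D4:**
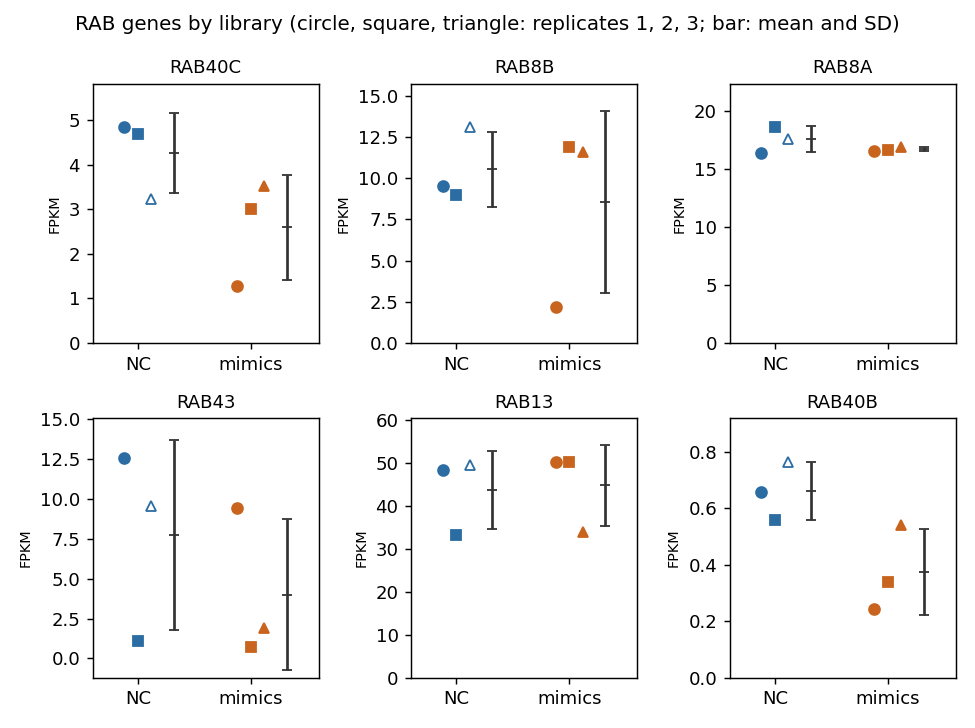
FPKM by library for 6 RAB genes, 3 of them with a wide spread within a group, with a marker for each replicate (open triangle, NC replicate 3) and the mean with SD as a bar. RAB8B is low in mimics replicate 1 alone, at 2.17 FPKM, and RAB43 has high and low libraries in both groups.

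NC replicate 3 stood apart from NC replicates 1 and 2 in these genes as in the table as a whole. It was nearer to the mimics mean than to the mean of the other NC libraries in 27 of 40 RAB genes (67.5%), and in 68.2% of all tested genes. Without it, the limma test called 5 RAB genes (12.5%), of which 2 were higher and 3 lower, against 14.8% of all tested genes in that setting (7.76% higher and 7.09% lower). RAB5A (difference 0.41, adjusted p = 0.030) and RAB1A (0.27, adjusted p = 0.028) were higher with the mimics there. RAB5B (-0.31, adjusted p = 0.039), RAB11B (-0.40, adjusted p = 0.028) and RAB3A (-0.37, adjusted p = 0.040) were lower. In each of the 5, NC replicate 3 was nearer to the mimics, which a choice of genes that pass only without that library favours. No count of RAB calls above 0 was found when any of the other 5 libraries was left out.

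The differences ran with the GC content of the transcripts. Across the 40 RAB genes, which share their 6 libraries, Spearman's rho between transcript GC content and the difference was -0.38, and over 10213 tested genes it was -0.50. For the distance of NC replicate 3 from the other NC libraries it was -0.70 among the RAB genes and -0.71 over all tested genes. The 20 RAB genes under 45% GC had a median difference of 0.02 with 11 positive, where all genes of that range had a median of 0.10 with 75.9% positive. The 12 genes at 55% GC or more had a median of -0.19 with 11 negative, against -0.11 over all genes of that range, of which 23.5% were positive. RAB4B was the positive value among these 12. RAB5A and RAB1A transcripts were at 42.03% and 38.3% GC, RAB5B at 46.3%, and RAB11B and RAB3A at 63.5% and 59.8%.

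With GC content corrected in each library, 0 of 40 RAB genes passed, where 0.999% of tested genes did. The searched words CCGCGGC and CGCGGC hold only G and C, so site content and GC content were not separated here. Before correction, the median over tested genes with and without a 7mer was -0.14 and -0.00136 for the 3′ UTR. It was -0.0974 and 0.00946 for coding sequence, and -0.0302 and -0.000461 for the 5′ UTR. The part of the sites in these values was not tested. The RAB values with GC correction follow. With the correction the difference was 0.22 for RAB5A (limma adjusted p = 0.19), -0.25 for RAB5B (adjusted p = 0.20) and 0.03 for RAB1A (adjusted p = 0.81). It was -0.14 for RAB11B (limma adjusted p = 0.34) and -0.15 for RAB3A (adjusted p = 0.34). These are the genes called without NC replicate 3. The lowest adjusted p of a member with GC correction was that of RAB27B (limma, 0.085), whose difference was -0.325 with the correction and -0.166 before it. The median over RAB genes of the low GC range given above was 0.0208 before and -0.0833 after the correction. For those of the high GC range it was -0.187 before and -0.105 after. With GC correction and without NC replicate 3 the count was again 0, against 1.19% of tested genes, and RAB14 had the lowest adjusted p, 0.055, at a GC content of 38.9%.

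**Figure D5:**
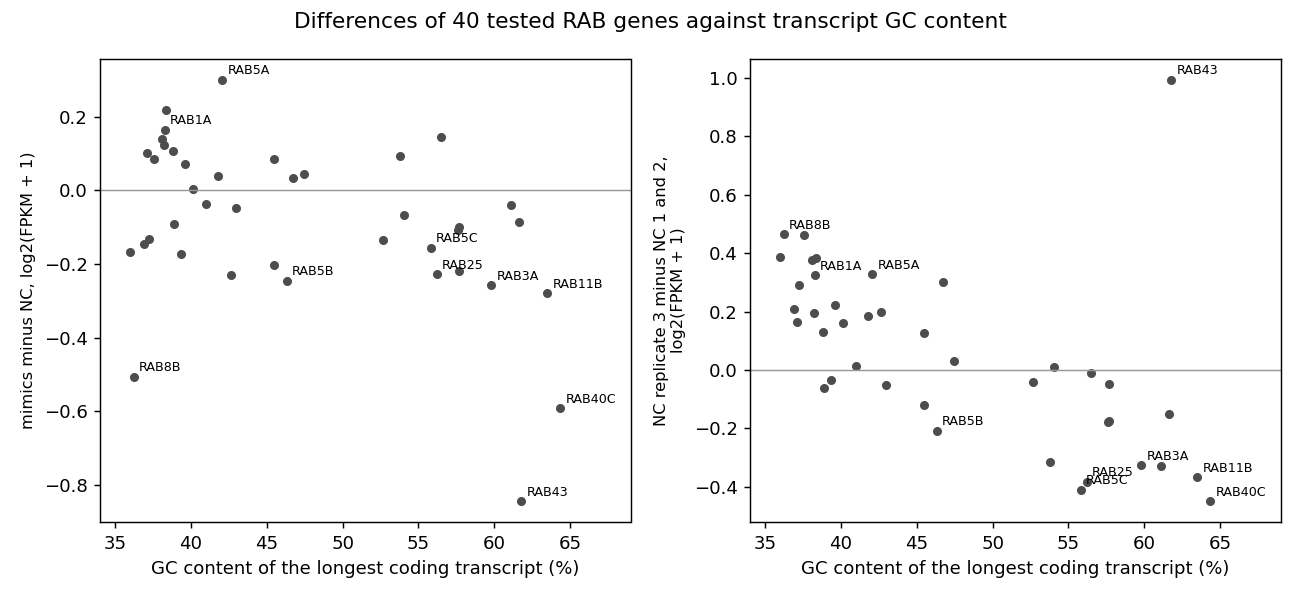
Difference between mimics and NC (left) and between NC replicate 3 and the mean of NC replicates 1 and 2 (right), on the log2(FPKM + 1) scale, against transcript GC content for the 40 tested RAB genes. In the right panel most genes of low GC lie above 0 and most of high GC below it (rho -0.70), with RAB43 as the high point.

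The proteins that act on RABs were examined as 4 lists, and 0 of their genes passed in either direction, where 0.408% of all tested genes did. Among 44 tested exchange factor genes the median difference was -0.02, with 17 positive and 27 negative values. TRAPPC1, a subunit of the TRAPP complexes that activate RAB1 and RAB11, averaged 38.4 ± 1.10 in NC and 53.0 ± 9.87 FPKM in mimics libraries (SD, n = 3; difference 0.44, limma adjusted p = 0.22). RIN2, which activates RAB5, was at 6.01 ± 0.418 and 7.35 ± 0.120 FPKM (adjusted p = 0.25). SBF1, a DENN domain protein, was at 7.58 ± 1.07 and 6.10 ± 0.317 FPKM, and MADD, an exchange factor of RAB3 and RAB27, at 7.58 ± 0.647 and 6.46 ± 0.370 FPKM.

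Among 36 tested GAP genes the median was -0.08, with 13 positive and 23 negative values. The smallest p-values of the 4 lists were here. TBC1D14, which also acts in autophagy, was at 19.2, 17.3 and 17.4 FPKM in NC and 13.7, 13.4 and 12.9 FPKM in mimics libraries. All mimics values were lower (difference -0.40, SE 0.07, limma adjusted p = 0.12). TBC1D13, a GAP of RAB35, averaged 9.55 ± 0.740 in NC and 6.77 ± 0.426 FPKM in mimics libraries (difference -0.44, adjusted p = 0.14). TBC1D1, known from glucose transporter traffic in muscle, was at 6.39 ± 0.299 and 4.80 ± 0.352 FPKM, and TBC1D10B at 7.29 ± 1.08 and 5.28 ± 0.173 FPKM (SD, n = 3 each). The groups of these 4 GAP genes did not overlap, as held for 7 lower and 0 higher of the 36 GAP genes, where 13.5% of all tested genes were wholly lower and 8.68% wholly higher. With GC correction the adjusted p was 0.058 for TBC1D14 and 0.051 for TBC1D13, and without NC replicate 3 it was 0.028 and 0.027.

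Among 9 tested genes of prenylation and GDI function the median difference was 0.20, with 7 positive and 2 negative values, and it was 0.16 with GC correction. GDI2, which extracts RABs from membranes, was at 68.7, 75.2 and 88.5 FPKM in NC and 89.7, 88.7 and 90.9 FPKM in mimics libraries. NC replicate 3 lay just below the mimics (difference 0.22, SE 0.10, limma adjusted p = 0.36). RABGGTB, a subunit of the enzyme that prenylates RABs, averaged 10.8 ± 3.05 in NC and 14.3 ± 0.888 FPKM in mimics libraries, and RABIF, a chaperone of RAB proteins, 10.1 ± 0.808 and 9.07 ± 0.447 FPKM (SD, n = 3 each).

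Among 49 tested effector genes the median was -0.03, with 22 positive and 27 negative values. RILPL2, which binds RABs phosphorylated by LRRK2, averaged 3.33 ± 0.232 in NC and 2.42 ± 0.227 FPKM in mimics libraries (limma adjusted p = 0.21). KIF20A, a mitotic kinesin that binds RAB6, was at 24.4 ± 0.590 and 20.6 ± 0.0362 FPKM (adjusted p = 0.21). BICD2, the dynein adaptor of RAB6 vesicles, was at 7.40 ± 0.665 and 9.40 ± 0.593 FPKM, and SYTL3, a RAB27 effector, at 1.96 ± 0.268 and 2.71 ± 0.258 FPKM (SD, n = 3 each). Without NC replicate 3, 5 of 44 exchange factor, 6 of 36 GAP, 3 of 9 prenylation and GDI and 4 of 49 effector genes passed, where 14.8% of all tested genes did. With GC correction 0 of them passed.

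The depth of the libraries is unknown, and FPKM summed to between 208274 and 222947 per library over listed genes. Of 8 gastric epithelial markers searched, 7 were listed, all but CLDN18. A marker that is not listed may have stayed under 0.527 FPKM, the lowest maximum of any listed gene, in every library. EPCAM was high, at 182 ± 4.03 FPKM in NC and 202 ± 4.90 FPKM in mimics libraries, as was KRT18 at 211 ± 26.1 and 235 ± 3.30 FPKM (SD, n = 3 each). KRT8 and KRT19 were also high. CDH1 was lower, at 3.35 ± 0.343 and 3.22 ± 0.886 FPKM, as was MUC1 at 2.90 ± 0.569 and 3.61 ± 0.626 FPKM. TFF1 was below 1 FPKM in mean. Of the markers searched for other cell types, 2 of 7 for fibroblasts, 2 of 6 for leukocytes, 1 of 5 for endothelium and 1 of 4 for neuroendocrine cells were listed. Their summed levels in NC and mimics libraries ran from 4.002 to 4.19 and from 3.88 to 4.28 FPKM for fibroblasts, from 6.41 to 7.33 and from 5.03 to 5.51 FPKM for leukocytes, from 1.95 to 2.96 and from 1.87 to 2.84 FPKM for endothelium, and from 0.455 to 0.483 and from 0.443 to 0.675 FPKM for neuroendocrine cells. None of the listed markers above the filter passed the limma test over all 6 libraries, and TFF1 and CHGB, the neuroendocrine marker listed, were below it and not tested. LYZ, a leukocyte marker that gastric epithelium also makes, averaged 5.25 ± 0.244 in NC and 3.95 ± 0.235 FPKM in mimics libraries (SD, n = 3 each), and its adjusted p was 0.18 with all libraries and 0.047 without NC replicate 3. The part of these markers in the results was not tested. In bulk RNA, fewer cells with a transcript and less of it per cell cannot be told apart.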

How the data were processed

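RNA libraries of AGS cells, 3 per group, were made with a stranded kit from total RNA, per the labels' protocols, and grouped by sample title. The deposited table gives FPKM, which the authors made per gene; per the submitters' processing notes, the tools included cutadapt and StringTie 1.3.3, and the build was GRCh37. No aligner or strand setting, and no annotation release, was given in the sources used here. The 312 genes with low values examined shared no ratio between NC replicates 1 and 2 (4 digits) in more than 3 genes, so reads could not be recovered and no counting interval is given.

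Values were taken as log2(FPKM + 1). Genes with a mean of at least 1 FPKM (10286 of 11187) entered a two-sided limma fit (limma 3.58.1, R 4.3.3) whose prior variance followed mean level, with Benjamini-Hochberg adjustment over all tested genes at 0.05. Members below the filter were compared by an exact permutation test over 20 assignments. GC content came from the longest coding transcript per gene in GENCODE v29 (99.3% of tested genes), and its correction subtracted a loess curve (span 0.3) per library. On simulated libraries of this comparison with 10286 genes, a log2 change of 1 was recovered for 94 of 100 altered genes and one of 0.5 for 42 of 100, and 9 of the 10086 unaltered genes were called. The simulated noise was independent between genes, without the GC trend or the shift of NC replicate 3. These rates may therefore not hold for the real libraries.

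The members and lists were chosen with earlier results of these data known. Values in each library are given for members that passed in any of 3 fits (all libraries, without NC replicate 3, with GC correction), the 10 smallest p-values, the 6 highest means and paralogs of such members, with values for the 4 genes of smallest p in each list, of which 1 is not reported here. RAB8A, RAB8B, RAB12, RAB26 and RAB43 were added after their values were seen, as was the LYZ marker. Identity between paralog proteins was not computed. Alternatives were other pseudocounts, filters and scalings, no trend, a replicate block, GC correction and leaving out each library.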

Additional observations from a re-analysis of the deposited data

How the results depend on the processing

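The count of 0 RAB genes passing at an adjusted p of 0.05 held with pseudocounts of 0.1 and 0.5, without the filter, with a filter of 5 FPKM, with median centring, quantile normalization, no trend and GC correction. Leaving out libraries in turn gave between 0 and 5 RAB genes and between 8 and 1527 of all tested genes, and the high value of each was without NC replicate 3. Over all tested genes 102 passed with GC correction and 122 with GC correction and without NC replicate 3. The median RAB difference was -0.090 without the filter, -0.066 with at least 5 FPKM, -0.068 with GC correction, -0.107 with GC correction and without NC replicate 3, and between -0.075 and -0.041 with a library left out.

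Whether the replicate numbers pair the libraries is not known. The deviations of same-numbered libraries correlated at 0.0386, -0.0421 and 0.0675, and those of other pairs from -0.116 to 0.104. With 3 libraries per group these correlations cannot exclude pairing. With a replicate block 11 genes passed, and 12 with the block and GC correction, among them 0 RAB genes, and the RAB median with the block and GC correction was -0.068.

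The differences of 17 members changed sign in some settings, and the cause was not tested. With GC correction, with or without the replicate block, the value was -0.058 for RAB18, 0.077 for RAB1B, -0.046 for RAB21, -0.109 for RAB22A, 0.036 for RAB24, -0.015 for RAB27A, -0.023 for RAB2A, -0.050 for RAB6A and -0.050 for RAB9A. With GC correction and without NC replicate 3 it was 0.037 for RAB17, -0.029 for RAB18, 0.039 for RAB1B, -0.121 for RAB21, -0.150 for RAB22A, 0.061 for RAB24, -0.069 for RAB27A, -0.092 for RAB2A, -0.059 for RAB6A, 0.051 for RAB8A and -0.078 for RAB9A. With a library left out, values ran from -0.230 to 0.022 for RAB11A, -0.150 to 0.218 for RAB13, -0.012 to 0.241 for RAB18, -0.151 to 0.055 for RAB1B, -0.035 to 0.057 for RAB22A, -0.161 to 0.022 for RAB24, -0.037 to 0.189 for RAB32, -0.093 to 0.107 for RAB6A, -0.065 to 0.143 for RAB7A, -0.850 to 0.163 for RAB8B and -0.0067 to 0.145 for RAB9A. Adding the read-through gene, a setting chosen after seeing the data, gave -0.175 for RAB4B. The unknown depth limits what can be said of the low genes.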
